A study of Mus musculus with 8 samples.

Results

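The immediate early transcription factors examined here were 10 genes, taken by name from the 24123 genes of an RPKM table of mouse pancreatic islet RNA. RPKM is the number of reads per kilobase of gene, scaled to the size of the library. The genes were *Fos*, *Fosb*, *Jun*, *Junb*, *Egr1*, *Egr2*, *Ier2*, *Nr4a1*, *Nr4a2* and *Nr4a3*. All 10 were found, and 9 of them (all but *Nr4a3*) reached at least 1 RPKM in at least 2 of 8 libraries, the level required of a tested gene. In all, 12594 genes passed this filter.

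Whole islets came from adult male littermate mice of 3 genotypes on a C57BL/6N background that was not extensively backcrossed. Control islets were *Irs2*+/+;*Cdk4*-WT/WT (3 libraries, numbered 1, 3 and 4), Diabetic islets were *Irs2*-/-;*Cdk4*-WT/WT (3 libraries, numbered 1, 2 and 3), and Rescue islets were *Irs2*-/-;*Cdk4*-R24C/R24C (2 libraries, numbered 1 and 2). Both alterations were present in the whole body, so the genotype was not limited to β cells, and no group carried R24C with intact *Irs2*. *Irs2* encodes an adaptor of the insulin and IGF1 receptors, and R24C makes CDK4 resistant to its INK-family inhibitors. Islets were released with collagenase, separated on Ficoll, picked by hand on ice and flash frozen. The labels number the mice but do not say whether a library held 1 mouse or a pool, so the p-values measure only the spread between these libraries.

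Immediate early genes are transcribed within minutes of a stimulus, from factors already present in the cell, without new protein synthesis. Calcium and cAMP act through CREB and its coactivators, and ERK acts through SRF and its ETS partners. FOS and JUN family proteins pair to form the AP-1 factor. EGR proteins are zinc finger factors, and NR4A proteins are nuclear receptors that act without a known classical ligand. In β cells, glucose and cAMP-raising hormones induce many of these genes, and tissue dissociation is also a known inducer in several tissues. Their transcripts are short-lived.

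The letters that CREB and SRF are known to read were searched for upstream of these genes. The 5 stretches shown belong to the genes on which the results turn: *Fos*, with the widest spread, the 3 NR4A genes, and *Egr2*, with the largest share of its variation between genotypes (it passed the filter only through its Rescue libraries). Each is the 250 bases before a RefSeq start of transcription (GRCm38.p6), written 5′ to 3′ on the gene's own strand. Capitals mark TGACG, the half-site of the cAMP response element, in either orientation (CGTCA on the printed strand), and in *Egr2* also the CArG box that SRF reads. The *Egr2* stretch was picked because it held a CArG box and the most matches, while for the other genes the first promoter listed was taken. The *Egr2* and *Nr4a1* stretches lie inside the annotated span of their gene. The *Nr4a3* stretch lies partly inside it, as that span starts at chr4:48045153.
Fos, chr12:85473640-85473889, plus strand: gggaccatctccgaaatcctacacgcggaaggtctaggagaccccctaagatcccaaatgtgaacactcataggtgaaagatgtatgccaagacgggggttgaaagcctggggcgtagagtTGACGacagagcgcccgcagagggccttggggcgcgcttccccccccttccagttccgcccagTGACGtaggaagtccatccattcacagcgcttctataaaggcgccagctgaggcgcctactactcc
Nr4a1, chr15:101266596-101266845, plus strand: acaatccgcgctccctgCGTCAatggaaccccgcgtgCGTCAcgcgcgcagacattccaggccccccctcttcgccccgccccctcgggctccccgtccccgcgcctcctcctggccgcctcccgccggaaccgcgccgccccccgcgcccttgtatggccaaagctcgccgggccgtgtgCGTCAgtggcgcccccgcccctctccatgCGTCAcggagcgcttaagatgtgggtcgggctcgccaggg
Nr4a2, chr2:57124004-57124253, minus strand: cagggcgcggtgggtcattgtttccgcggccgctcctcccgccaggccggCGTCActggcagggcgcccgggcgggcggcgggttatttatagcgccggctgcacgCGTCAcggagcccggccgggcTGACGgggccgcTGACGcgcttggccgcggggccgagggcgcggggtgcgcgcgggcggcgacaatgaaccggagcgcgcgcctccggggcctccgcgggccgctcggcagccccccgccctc
Nr4a3, chr4:48045055-48045304, plus strand: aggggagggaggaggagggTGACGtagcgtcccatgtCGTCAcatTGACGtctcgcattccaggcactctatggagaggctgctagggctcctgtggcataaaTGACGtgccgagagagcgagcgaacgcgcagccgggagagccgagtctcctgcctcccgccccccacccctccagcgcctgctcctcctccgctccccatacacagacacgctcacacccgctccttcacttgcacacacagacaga
Egr2, chr10:67537619-67537868, plus strand: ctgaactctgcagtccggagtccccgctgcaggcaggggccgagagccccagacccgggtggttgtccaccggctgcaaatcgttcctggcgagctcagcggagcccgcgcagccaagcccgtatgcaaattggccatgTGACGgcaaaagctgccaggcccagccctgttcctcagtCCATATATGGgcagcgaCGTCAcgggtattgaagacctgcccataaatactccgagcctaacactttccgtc

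*Fos* had 2 half-sites, beginning 129 and 66 bases before the start, and each of *Nr4a1*, *Nr4a2* and *Nr4a3* had 4. *Egr2* had 2 half-sites on either side of a CArG box, CCATATATGG, that began 72 bases before the start. RefSeq promoters were matched by symbol for 8 of the 10 genes, all but *Egr1* and *Ier2*. Searched over 250 bases before to 50 after the start, TGACG was present in 7 of the 8 (all but *Jun*), against 23.0% of 27025 genes, a gene counting once whichever of its promoters held the match. The full palindrome TGACGTCA, which contains TGACG on both strands, was in 0 of the 8 and in 2.03% of genes. The CArG box was in 1 of the 8, *Egr2*, and in 1.81% of genes. Sites outside this window, or that depart from the exact letters, were missed, so a gene without a match may still have an SRF site. These are matches of letters, and no binding was measured.

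The libraries held 10290000 (Diabetic 2) to 14316000 (Control 1) reads in genes, recovered from the steps of the RPKM values. *Irs2* was measured at 5.14, 11 and 6.74 RPKM in Control, 36.3, 31.6 and 22.0 RPKM in Diabetic, and 7.15 and 16.3 RPKM in Rescue islets, so a gene-level value did not check the deletion, whose extent is not given in the sources used here. *Cdk4* was at 18.0 to 42.4 RPKM, and a point mutation cannot be read from it. The islet label matched its markers, with *Ins2* at 54200 to 107000 RPKM. Over all tested genes the median log2 difference was -0.12 for Diabetic minus Control, 0.24 for Rescue minus Diabetic and 0.08 for Rescue minus Control. After TMM scaling these medians were -0.02, 0.06 and -0.00, so a Rescue minus Diabetic difference should be read against a shift of 0.24. Because islets were measured in bulk, fewer cells of a type and less RNA per cell cannot be told apart.

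In every genotype, 1 library stood above the rest for most of these genes. The library was Control 3, Diabetic 1 or Rescue 2. Within-genotype ranges reached 112-fold, while the Diabetic mean was 1.09-fold to 1.66-fold the Control mean for 7 of the 10 genes. The plot of each gene by library shows both facts.

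**Figure D1:**
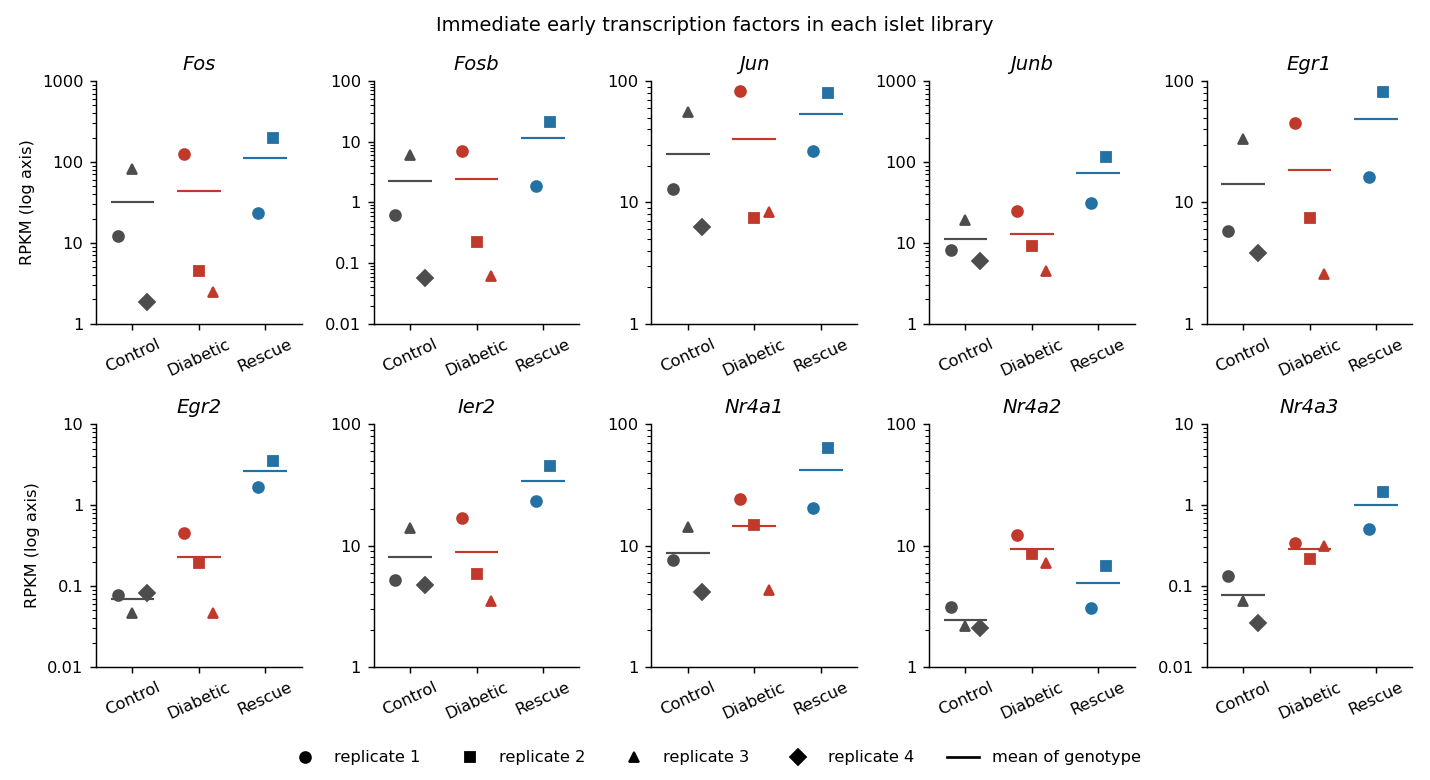
RPKM (log axis, a separate range for each gene) of the 10 genes in the 3 Control, 3 Diabetic and 2 Rescue libraries. Points are libraries, their shapes give the replicate number, and lines are genotype means. For *Fos* the libraries Control 3 (82.2 RPKM), Diabetic 1 (124 RPKM) and Rescue 2 (200 RPKM) sat above the rest of their genotype, while *Nr4a2* in the 3 Diabetic libraries (7.22 to 12.2 RPKM) sat above all Control libraries (2.09 to 3.12 RPKM).

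*Fos* (chr12:85473890-85477273, GRCm38, plus strand, 4 exons in its longest transcript) encodes the archetypal AP-1 subunit. It was at 12.0, 82.2 and 1.88 RPKM in Control 1, 3 and 4, at 124, 4.43 and 2.45 RPKM in Diabetic 1, 2 and 3, and at 23.5 and 200 RPKM in Rescue 1 and 2. These values rested on 63 to 5704 reads, so counting error was small beside the differences. The 3 genotypes overlapped, and the highest library exceeded the lowest 43.7-fold within Control, 50.6-fold within Diabetic and 8.49-fold within Rescue islets. The standard deviation within genotypes was 2.54 on the log2(RPKM + 1) scale, and only 1 of the 12594 tested genes had a larger one.

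*Fosb* (chromosome 7), the close relative of *Fos*, was at 0.626, 6.0 and 0.0563 RPKM in Control, 6.98, 0.223 and 0.0624 RPKM in Diabetic, and 1.85 and 21 RPKM in Rescue islets. The lowest value in each of Control and Diabetic rested on 5 reads, and the range within these genotypes was 107-fold and 112-fold. *Jun* (chromosome 4, a single exon) encodes the partner of FOS proteins. It was at 12.8, 55.8 and 6.23 RPKM in Control, 83.4, 7.49 and 8.33 RPKM in Diabetic, and 26.3 and 80.0 RPKM in Rescue islets. The same 3 libraries were again the highest of their genotypes, and Diabetic 1 exceeded both Rescue libraries for *Jun*.

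*Junb* (chromosome 8) encodes a JUN relative that often restrains JUN activity. It was at 8.17, 19.1 and 5.92 RPKM in Control, 24.7, 9.17 and 4.44 RPKM in Diabetic, and 31.1 and 114 RPKM in Rescue islets. Both Rescue libraries lay above all 6 others, although the pair differed 3.68-fold. *Jun* overlaps the antisense gene *Junos* over 689 bases and *Junb* overlaps *Prdx2*, on the other strand, over 351 bases. The sources used here do not say whether reads were counted by strand, so both genes' levels are uncertain to that extent.

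*Egr1* (chromosome 18) encodes a zinc finger activator that is induced by glucose in β cells. It was at 5.77, 33.0 and 3.82 RPKM in Control, 45.5, 7.50 and 2.57 RPKM in Diabetic, and 16.1 and 80.7 RPKM in Rescue islets. Its pattern followed that of *Fos*, with overlapping genotypes and a 17.7-fold range within Diabetic islets.

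*Egr2* (chr10:67535475-67542188, plus strand), whose product directs myelination in Schwann cells and acts in lymphocytes and macrophages, behaved differently. It was at 0.0780, 0.0461 and 0.0827 RPKM in Control, 0.447, 0.191 and 0.0459 RPKM in Diabetic, and 1.68 and 3.56 RPKM in Rescue islets. Control and Diabetic values rested on 2 to 21 reads, and the Rescue values on 69 and 147 reads. Both Rescue libraries lay above all others, and the gene was near the limit of detection in 4 libraries with 2 to 4 reads.

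*Ier2* (chromosome 8, a single exon) encodes a small nuclear protein. It was at 5.22, 14.1 and 4.75 RPKM in Control, 17.0, 5.86 and 3.48 RPKM in Diabetic, and 23.2 and 45.4 RPKM in Rescue islets. As for *Junb*, both Rescue libraries exceeded all 6 others.

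Among the nuclear receptors, *Nr4a1* (chromosome 15) encodes NUR77, which is induced by cAMP and by antigen receptor signalling. It was at 7.60, 14.3 and 4.14 RPKM in Control, 24.2, 14.8 and 4.32 RPKM in Diabetic, and 20.5 and 63.6 RPKM in Rescue islets. Rescue islets were above Control but overlapped Diabetic islets. *Nr4a3* (chromosome 4) encodes NOR1 and was low, at 0.133, 0.0654 and 0.0352 RPKM in Control, 0.339, 0.217 and 0.312 RPKM in Diabetic, and 0.511 and 1.47 RPKM in Rescue islets. It rested on 3 to 107 reads, and its 3 genotypes did not overlap, in the order Control, Diabetic, Rescue.

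*Nr4a2* (chr2:57106830-57124003, minus strand, 8 exons in its longest transcript) encodes NURR1, best known for its need in midbrain dopamine neurons. It was at 3.12, 2.16 and 2.09 RPKM in Control, 12.2, 8.45 and 7.22 RPKM in Diabetic, and 3.07 and 6.84 RPKM in Rescue islets, on 112 to 684 reads. All Diabetic libraries lay above all Control and both Rescue libraries, and the range within each genotype was 1.49-fold to 2.23-fold. It was the least variable of the 10 genes over the 8 libraries, at 5.83-fold from the lowest to the highest.

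The within-genotype spread was then set against the spread between genotypes, for each gene, as the share of the sum of squares of log2(RPKM + 1) that lay between the 3 genotypes. The share was 17.8% for *Jun*, 20.2% for *Fos*, 25.5% for *Egr1* and 26.7% for *Fosb*. It was 50.9% for *Nr4a1*, 62.2% for *Junb*, 62.3% for *Ier2*, 82.0% for *Nr4a2* and 90.7% for *Egr2*. The median over all tested genes was 62.4%, and the median of the 9 members was 50.9%. The standard deviation within genotypes had a median of 1.05 for the members and 0.22 for all genes, and 7 of the 9 members were in the top 2.5% of all genes. The exceptions were *Egr2* (0.29) and *Nr4a2* (0.40). For *Egr2* this depends on the scale. Its Control and Diabetic values, 0.0459 to 0.447 RPKM, lie below the pseudocount of 1, which compresses them, and its Diabetic libraries ranged 9.75-fold. The SE of its Diabetic minus Control difference was 0.21, and 0.6 with a pseudocount of 0.1.

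**Figure D2:**
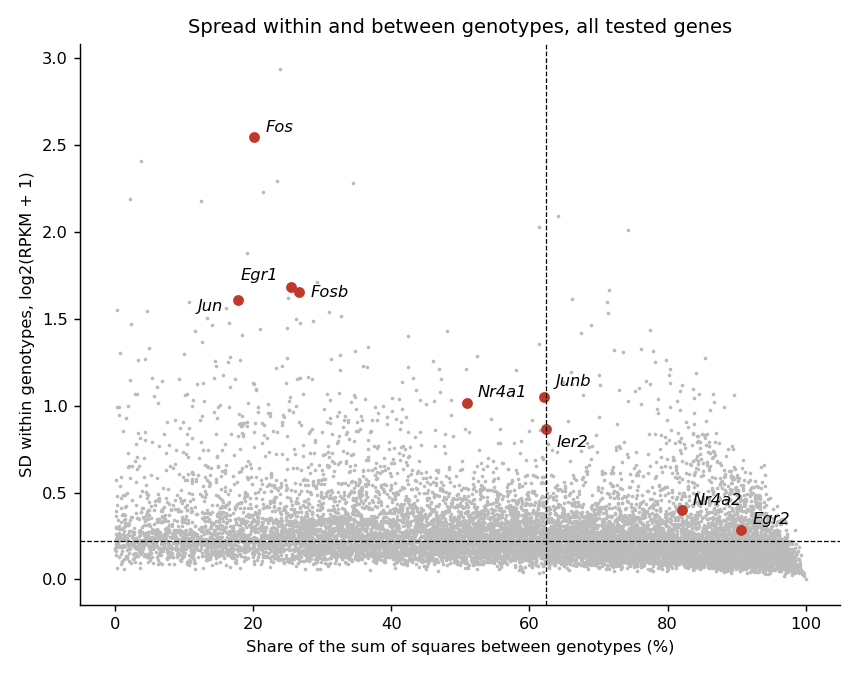
Share of the sum of squares between genotypes (x axis, percent) against the standard deviation within genotypes (y axis, log2(RPKM + 1)) for the 12594 tested genes (grey) and the 9 tested members (red), with dashed lines at the medians of all genes, 62.4% and 0.22. *Fos*, *Fosb*, *Jun* and *Egr1* sit at the upper left, with a large spread within genotypes and a share of 17.8% to 26.7%, and *Egr2* and *Nr4a2* sit at the lower right. The Control and Diabetic values of *Egr2* lie below 1 RPKM, where adding 1 compresses its spread.

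Over all 280 distinct ways to assign the 8 libraries to groups of 3, 3 and 2, an exact permutation test gave p = 0.00714 for *Nr4a2* and p = 0.0143 for *Egr2*. The adjusted p over all tested genes was 0.061 and 0.0701, so neither passed after adjustment (the smallest exact p this design allows is 0.00357). The exact permutation p of the other 7 members ranged from 0.1 (*Junb*) to 0.589 (*Jun*). Thus 2 of 9 members had an exact p under 0.05, against 40.2% of all tested genes. Of these, *Egr2* passed the filter only through its Rescue libraries.

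Levels moved together across libraries. *Fos*, *Fosb*, *Jun* and *Egr1* had Pearson r of 0.96 to 0.99 in their 6 pairs, over the 8 libraries, whereas *Nr4a2* had r of 0.13 to 0.38 with the other 8 tested members. The remaining pairs had r of at least 0.56. Within genotypes, after the genotype means were removed, *Nr4a2* had r of 0.59 (*Jun*) to 0.93 (*Egr2*) with the same 8 members. These libraries fall into 3 genotypes and differ in depth, so r is a description here. Control 3 was the highest Control library for 7 of the 9 tested members, Diabetic 1 the highest Diabetic library for 9, and Rescue 2 the highest Rescue library for 9. All of these held at once for 7 of 9 members (77.8%), against 18.1% of all tested genes. These libraries were named from the values of the members themselves, so a high share was built in. The members also moved together and are not separate cases. The 77.8% therefore describes the set and cannot test whether it differs from other genes. Diabetic 1 and Rescue 2 were also the highest for 66.2% and 62.2% of all tested genes.

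The genes outside the set that were most like its mean profile were *Dusp1* (Pearson r = 0.98 over 8 libraries), *Ccnk* and *Lta4h* (0.967 each), *Ddhd1* (0.966), *Dhx15* (0.959), and *Utp20*, *Cflar* and *Zswim4* (0.955 each). *Dusp1*, an immediate early phosphatase that switches off MAP kinases, was at 7.88, 14.7 and 4.38 RPKM in Control, 18.7, 5.76 and 4.02 RPKM in Diabetic, and 15.9 and 47.4 RPKM in Rescue islets. Between its lowest and highest library *Dusp1* differed 11.8-fold, while the other 7 genes differed from 1.53-fold (*Ccnk*) to 2.35-fold (*Utp20*).

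Diabetic and Control islets differed in *Irs2* genotype, with *Cdk4* wild type in both. The authors reported raised blood glucose in male mice of the Diabetic genotype. In males of the Rescue genotype they reported glucose at control levels with raised plasma insulin. Effects of genotype and of this metabolic state cannot be told apart here. *Nr4a2* rose, with a mean of 9.29 ± 2.59 RPKM (SD, n = 3) in Diabetic against 2.46 ± 0.571 RPKM (SD, n = 3) in Control islets, a 3.78-fold ratio. The difference was 1.56 on the log2(RPKM + 1) scale (SE 0.28; limma, adjusted p = 0.026 over all tested genes). It was 1 of 9 tested members past the threshold, against a background of 3.97% of all tested genes. The other 8 had log2 differences of -0.14 to 0.55 and adjusted p of 0.599 to 0.992, with SE of 1.01 to 1.60 for *Fos*, *Fosb*, *Jun* and *Egr1*, whose spread within genotypes was the widest. Diabetic libraries lay above all Control libraries for 1 of 9 tested members (*Nr4a2*), against 10.2% of all genes, and below them for 0 of 9, against 21.5%. The *Nr4a2* call did not hold when any 1 Control library, or Diabetic 1 or 2, was left out, with adjusted p of 0.0594 to 0.117 and log2 differences of 1.36 to 1.69.

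Rescue and Diabetic islets, both *Irs2*-null, differed in *Cdk4*-R24C and, by the authors' account of these genotypes, in blood glucose. *Egr2*, *Junb* and *Ier2* rose. *Egr2* had 2.62 ± 1.33 RPKM (SD, n = 2) in Rescue against 0.228 ± 0.203 RPKM (SD, n = 3) in Diabetic islets, an 11.5-fold ratio, and its log2 difference was 1.52 (SE 0.24; limma, adjusted p = 0.00322). *Egr2* reached 1 RPKM only in the Rescue libraries, so the filter let it in through the group where it was high. With no filter on any gene, limma gave adjusted p = 0.00475 in this comparison and 0.00231 in Rescue against Control islets. *Junb* was 5.69-fold higher by the means, with a log2 difference of 2.43 (SE 0.75; limma, adjusted p = 0.0401). *Ier2* was 3.91-fold higher by the means, with a log2 difference of 2.03 (SE 0.62; limma, adjusted p = 0.0395). All 3 differences exceeded the shift of 0.24 in the median gene.

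These were 3 of 9 tested members called, and 29.8% of all tested genes were called, so the members' share was near the background. Rescue libraries lay above all Diabetic libraries for 3 of 9 members, against 42.0% of all genes, and below them for 1 of 9 (*Nr4a2*), against 12.9%. The log2 differences of *Fos* (2.40, SE 1.79, limma adjusted p = 0.326), *Fosb* (1.86), *Egr1* (1.74), *Nr4a1* (1.54) and *Jun* (1.32) did not pass, with adjusted p of 0.137 to 0.392. With 1 library left out these log2 differences ranged from 0.89 to 4.02 (*Fos*), 0.39 to 3.33 (*Fosb*), 0.61 to 2.86 (*Egr1*), 0.74 to 2.33 (*Nr4a1*) and 0.54 to 2.4 (*Jun*). With a nuclear RNA score as covariate that of *Fos* was 0.07. *Nr4a2* had a log2 difference of -0.84 (SE 0.31; limma, adjusted p = 0.0718), with all Rescue libraries below all Diabetic libraries. It was called in 4 of 17 settings: with TMM scaling, median-of-ratios scaling and voom (adjusted p of 0.0195, 0.0167 and 0.0195) and without Rescue 2 (-1.31, adjusted p = 0.0198). Without Rescue 1 the difference was -0.36 (adjusted p = 0.433).

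In Rescue against Control islets the same 3 genes rose. *Egr2*, with 2 to 4 reads in each Control library, had a log2 difference of 1.71 (SE 0.24; limma, adjusted p = 0.00134). *Junb* differed by 2.49 (SE 0.75; limma, adjusted p = 0.0434) and *Ier2* by 2.04 (SE 0.62; limma, adjusted p = 0.045). *Nr4a1*, with all Rescue libraries above all Control libraries, missed the threshold at 2.08 (SE 0.72; limma, adjusted p = 0.0709). *Nr4a2* was at 0.72 (SE 0.31; limma, adjusted p = 0.13). The count was 3 of 9, against 23.5% of all genes. Rescue libraries lay above all Control libraries for 4 of 9 members, against 33.1% of all genes, and below them for 0 of 9, against 18.9%. *Nr4a3* could not be tested under the filter. With no filter, limma gave 0.84 (SE 0.18; adjusted p = 0.017) in this comparison, and adjusted p of 0.0577 and 0.434 in Rescue against Diabetic and Diabetic against Control.

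**Figure D3:**
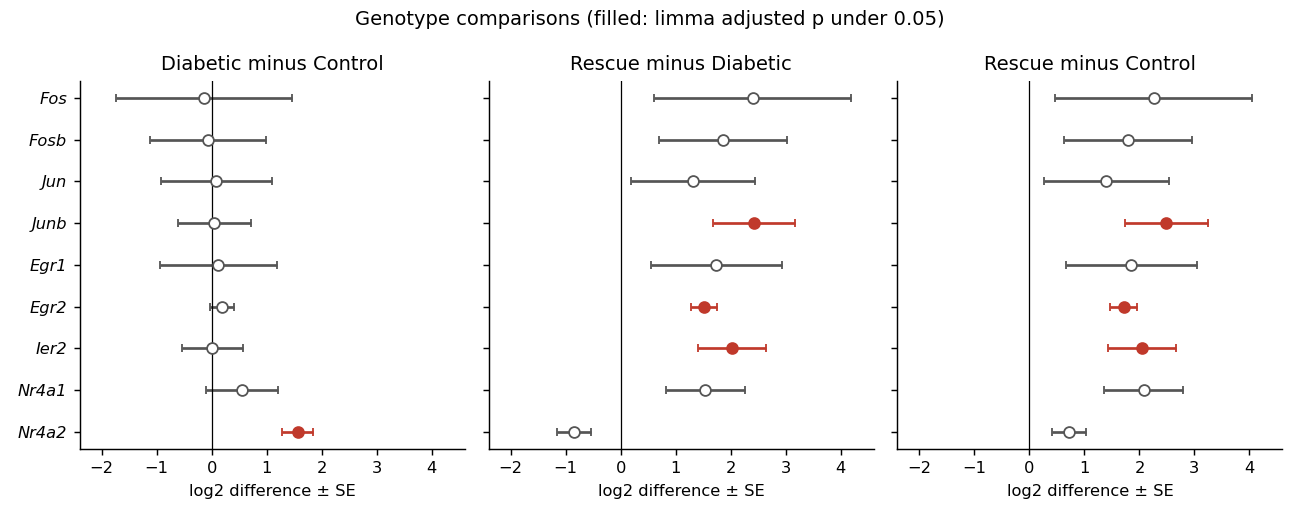
Log2 difference ± SE, on log2(RPKM + 1), of the 9 tested members in the 3 comparisons. Filled points have a limma adjusted p under 0.05. *Nr4a2* is filled in Diabetic minus Control (1.56), and *Junb*, *Egr2* and *Ier2* are filled in both Rescue comparisons, while *Fos* has the widest bars (SE 1.60 to 1.79).

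*Egr2* was called in both Rescue comparisons in the 14 settings in which it was tested. Except where no filter was used, it entered these settings only through its high Rescue libraries, so they are not independent support for the call. With either Rescue library left out, or with a mean of at least 5 RPKM required, it fell below the filter and was not tested, so its dependence on 1 Rescue library is not known. *Junb* and *Ier2* were called in 8 of 17 settings against Diabetic and in 7 of 17 against Control islets, and lost the call whenever a Rescue library was left out, with adjusted p of 0.0567 to 0.224. Without Rescue 2 the log2 differences of *Junb* were 1.51 and 1.56.

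Other rapidly induced genes were taken as lists. Of 16 tested transcription factor genes outside the set, 1 rose in Diabetic against Control islets, beside 3.97% of all genes called. It was *Maff*, a small MAF factor. *Maff* was at 3.66, 4.22 and 4.18 RPKM in Control, 11.5, 11.1 and 8.02 RPKM in Diabetic, and 4.13 and 7.89 RPKM in Rescue islets (log2 difference 1.15, SE 0.22; limma, adjusted p = 0.0321). Against Diabetic islets 10 rose in Rescue and 0 fell, with a median of 1.28 over the list and 0.24 over all genes, of which 29.8% were called. With the nuclear RNA covariate 6 of the 16 were called. The largest were *Myc* (2.34), a growth regulator, *Egr3* (1.83), an EGR relative, and *Klf2* (1.79), a Krüppel-like factor of endothelium and lymphocytes. Against Control islets 11 rose and 0 fell (23.5% of all genes were called), led by *Klf2* (2.73), *Egr3* (2.2) and *Atf3* (2.07), a stress-induced ATF factor. Outside Rescue islets *Egr3* and *Atf3* reached 1 RPKM only in Diabetic 1 (1.04 and 1.01 RPKM). They passed the filter of 2 libraries through the group where they were high.

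The list of feedback genes held phosphatases, RNA decay factors and other induced genes, not all of which limit signalling. It had 28 genes. Of these, limma called 0 in Diabetic against Control islets, beside 3.97% of all genes called. In this comparison 11 of the 28 had an unadjusted p under 0.05 by limma, and voom on recovered reads called 3. Against Diabetic islets 11 of 28 rose in Rescue, beside 29.8% of all genes called, with a median of 0.49 over the list and 0.24 over all genes. They were led by *Ccn1* (3.11), a secreted matricellular protein, and by *Dusp2*, a phosphatase of immune cells, and *Zfp36*, which promotes decay of AU-rich transcripts (2.92 each). Against Control islets 12 rose, beside 23.5% of all genes called, led by *Zfp36l1* (3.54), *Dusp2* (3.33) and *Zfp36* (2.97). *Dusp2* reached 1 RPKM outside Rescue islets only in Diabetic 1 (1.63 RPKM), so it passed the filter of 2 libraries through the group where it was high.

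**Figure D4:**
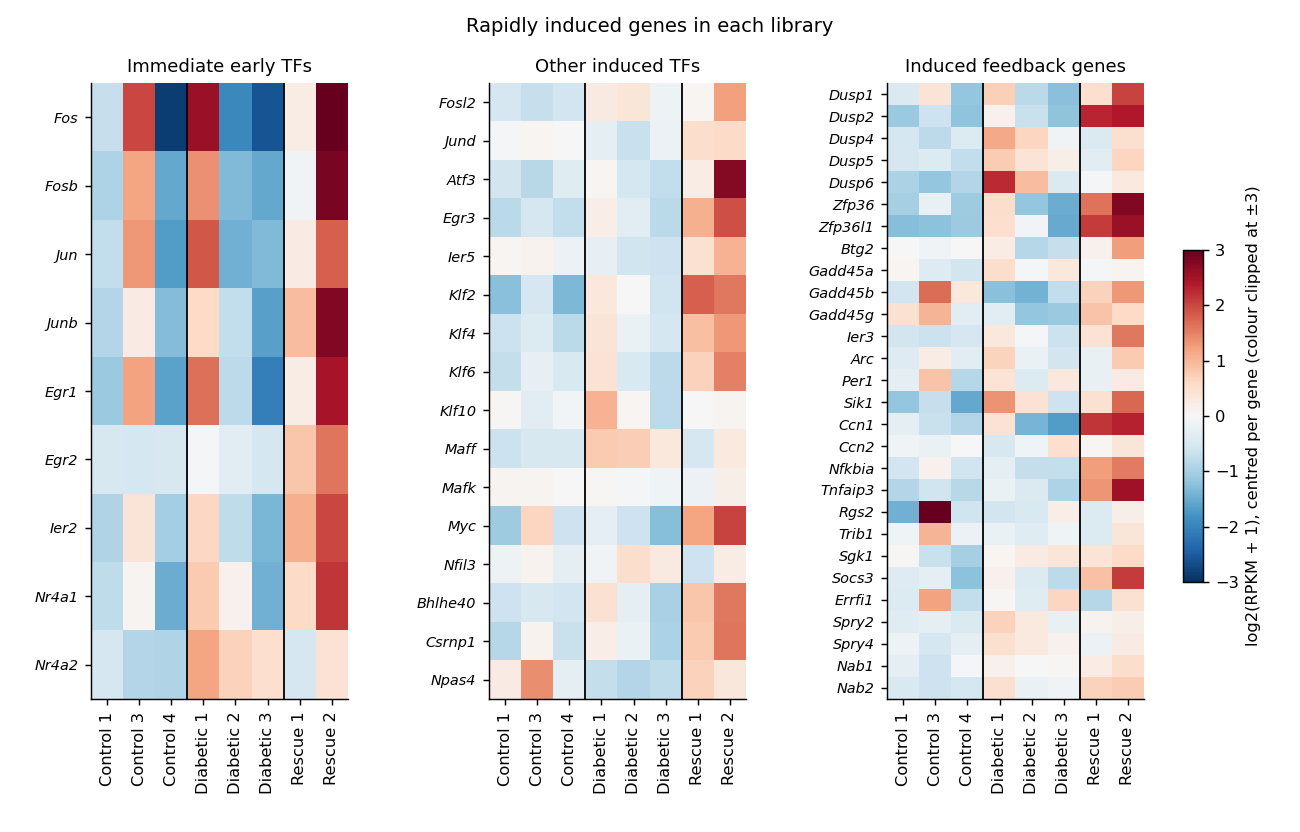
log2(RPKM + 1) centred over the 8 libraries for each gene (colour, clipped at 3 either way) in 9 tested members, 16 other induced transcription factors and 28 feedback genes, with vertical lines between genotypes. The *Fos*, *Fosb*, *Jun* and *Egr1* rows are high in Control 3, Diabetic 1 and Rescue 2, and *Nr4a2* and *Maff* are high in the Diabetic libraries. *Rgs2* is high in Control 3 alone.

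Of 18 tested genes of the upstream pathways (CREB, SRF, ETS and ERK), 1 rose in Diabetic against Control islets, beside 3.97% of all genes called. It was *Crem*, whose locus encodes the cAMP-inducible repressor ICER, at 5.67, 3.91 and 3.36 RPKM in Control, 11.7, 8.78 and 10.9 RPKM in Diabetic, and 3.69 and 5.48 RPKM in Rescue islets. The log2 difference was 1.13 (SE 0.21; limma, adjusted p = 0.0288), and *Crem* fell by 1.05 in Rescue against Diabetic islets (limma, adjusted p = 0.0121). Its Diabetic libraries lay above all others, as those of *Nr4a2* did. In Rescue against Diabetic islets 9 of the 18 were called, beside 29.8% of all genes, but 6 by voom and 4 with the nuclear RNA covariate. By limma without the covariate 8 rose and 1, *Crem*, fell, led by the RSK kinase gene *Rps6ka1* (1.90), *Elk4* (1.28) and *Mrtfa* (1.14), the latter a coactivator of SRF. In Rescue against Control islets 3 rose and 2 fell, beside 23.5% of all genes called, led by *Rps6ka1* (2.27), *Elk4* (0.98) and *Mrtfa* (0.82).

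Libraries that were high for the set also differed in other lists. Of 11 heat shock genes, *Bag3*, a cochaperone, rose in Diabetic against Control islets (1.58, SE 0.19; limma, adjusted p = 0.0106) and fell by 1.38 in Rescue against Diabetic islets. *Hsp90aa1* rose by 0.58 in Rescue against Control islets (limma, adjusted p = 0.0428). In each comparison 1 of the 11 was called. Of all tested genes, 3.97% (Diabetic against Control), 29.8% (Rescue against Diabetic) and 23.5% (Rescue against Control) were called. The inducible chaperone gene *Hspa1b* was at 5.67, 49.8 and 1.23 RPKM in Control, 61.5, 0.929 and 0.945 RPKM in Diabetic, and 5.22 and 22.0 RPKM in Rescue islets. It was therefore highest in Control 3, Diabetic 1 and Rescue 2, the libraries highest for *Fos*, and was named after its values were seen. These libraries were the highest of their genotypes for 4 of the 11 heat shock genes (36.4%), against 18.1% of all tested genes.

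Nuclear-retained RNAs split the libraries, although limma called 0 of 8 between genotypes (1 at an unadjusted p under 0.05, in Rescue against Diabetic islets, and 0 by voom). Their mean centred log2(RPKM + 1), over 8 tested genes, was 1.31, 0.74 and -1.80 in Control, 1.14, -1.78 and -1.72 in Diabetic, and 1.35 and 0.75 in Rescue islets. The mean of the 9 members was -0.78, 0.55 and -1.43 in Control, 1.18, -0.73 and -1.33 in Diabetic, and 0.38 and 2.15 in Rescue islets. The 3 libraries low for nuclear RNA (Control 4, Diabetic 2 and Diabetic 3) were among the lowest 4 for the set. With the nuclear RNA score as a covariate, *Egr2* passed in both Rescue comparisons and *Nr4a2* in Diabetic against Control islets, while *Junb* and *Ier2* did not pass, at adjusted p of 0.0594 to 0.149. Their log2 differences with the covariate were 2.11 (*Junb*) and 1.69 (*Ier2*) against Control and 1.72 and 1.37 against Diabetic islets.

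Lymphocyte, macrophage and fibroblast markers summed to higher levels in Rescue islets. The summed level of 8 lymphocyte markers was 5.37 to 24.3 RPKM in Control, 6.24 to 109 RPKM in Diabetic, and 259 and 355 RPKM in Rescue islets. Of these, 6 of 8 were called higher against Diabetic and 8 of 8 against Control islets. Of all tested genes, 29.8% and 23.5% were called in these comparisons, in either direction. Of the 8, *Cd3d*, *Cd3g* and *Ms4a1* were at 0 in Control 1 and *Cd3d*, *Cd3e* and *Cd3g* in Diabetic 3, while the B cell gene *Cd79a* was at 5.27 and 5.99 RPKM in these libraries. The order of the Diabetic libraries was the same for lymphocyte markers (109, 34.3 and 6.24 RPKM) as for *Egr2* (0.447, 0.191 and 0.0459 RPKM). *Fos*, *Fosb*, *Junb*, *Egr1*, *Ier2*, *Nr4a1* and *Nr4a2* had this order too. Diabetic 1 was the highest Diabetic library for 66.2% of all tested genes. Lymphocyte markers were highest in Control 3 (24.3 RPKM) and Rescue 1 (355 RPKM) of their genotypes. In Rescue islets the order of *Egr2* differed, with more in Rescue 2 (3.56 RPKM) than in Rescue 1 (1.68 RPKM). In Control islets *Egr2* had 4, 2 and 4 reads in libraries 1, 3 and 4, too few to order them. Macrophage markers summed to 60.9 to 111 RPKM in Control, 92.6 to 251 RPKM in Diabetic and 584 to 681 RPKM in Rescue islets, with 6 and 7 of 8 tested called higher. Fibroblast markers (4 and 8 of 8) and endothelial markers (2 and 5 of 9) were called higher in the same comparisons. The endothelial 2 of 9 did not exceed the 29.8% of all tested genes. *Cd3g* and the fibroblast gene *Pdgfra* reached 1 RPKM only in the Rescue libraries. Outside Rescue islets *Cd3d* and *Cd3e* reached it only in Diabetic 2 (1.95 and 1.12 RPKM). The filter therefore let these genes in through the group where they were high. Limma and voom called 0 of 7 acinar markers, with an unadjusted p under 0.05 for 0 of them, in all 3 comparisons. Of 8 β cell markers, 2 were lower in Diabetic and 2 in Rescue than in Control islets, beside 3.97% and 23.5% of all tested genes called. The part of these cells, of nuclear RNA and of heat shock in the levels of the 10 genes was not tested.

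**Figure D5:**
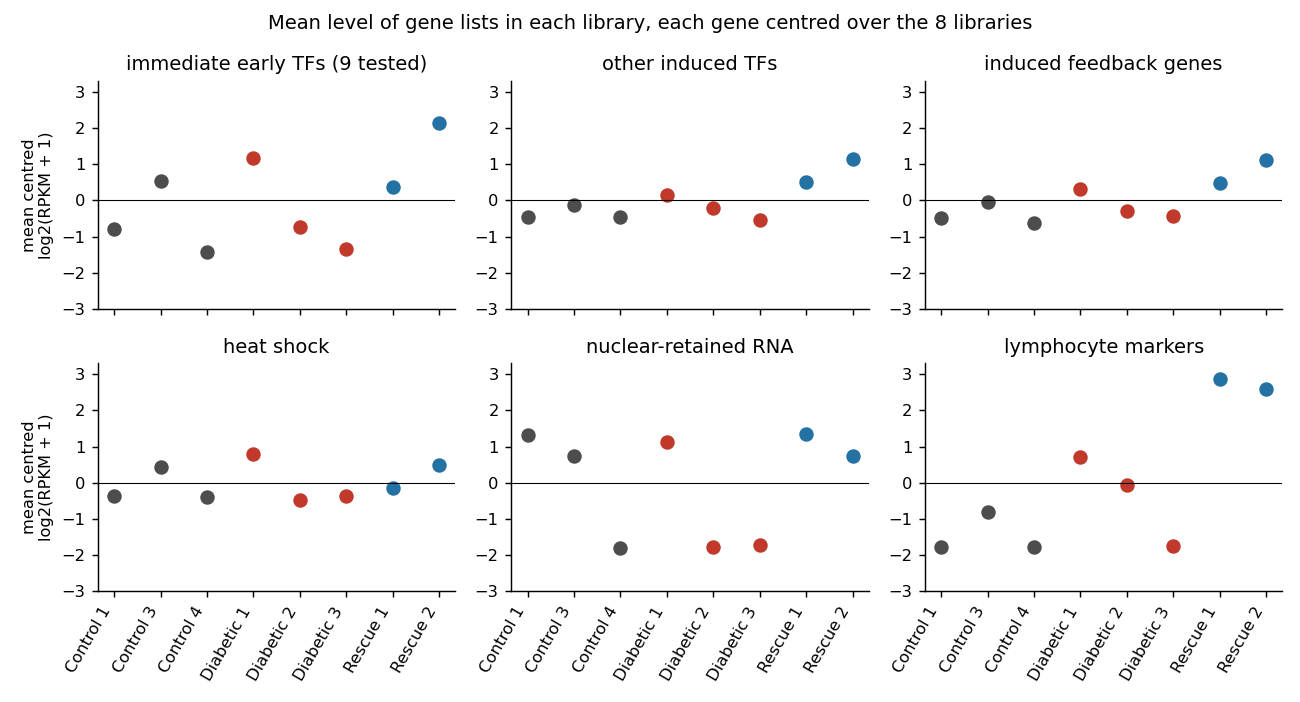
Mean of log2(RPKM + 1), centred for each gene over the 8 libraries, for 6 gene lists in each library (points, coloured by genotype). The members are high in Control 3 (0.55), Diabetic 1 (1.18) and Rescue 2 (2.15), nuclear-retained RNA is low in Control 4, Diabetic 2 and Diabetic 3 (-1.80 to -1.72), and lymphocyte markers are highest in both Rescue libraries (2.86 and 2.6).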

How the data were processed

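Islet RNA-Seq libraries of 3 Control, 3 Diabetic and 2 Rescue samples were grouped by the genotype in their labels. The authors aligned reads with STAR to mm10, counted them with HTSeq and tested counts with edgeR (versions not given in the sources used here), and deposited RPKM values per gene, which were used as deposited. The members and gene lists were chosen with earlier results of these data known.

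RPKM values were tested on log2(RPKM + 1), with a pseudocount of 1, by limma 3.58.1 in R 4.3.3 (1 mean per genotype in a fit of all 8 libraries, empirical Bayes with trend, two-sided, Benjamini-Hochberg over 12594 genes that reached 1 RPKM in 2 or more libraries, threshold 0.05). This scale understates changes of low genes. Whole reads were recovered for 100% of 18126 genes above 0 (within 0.001 of a whole number) and served for depth and, as an alternative added after seeing the data, for limma's voom. The planned edgeR test was not run because the values are RPKM. The share of variation between genotypes was tested by exact permutation.

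Genes named were the 10 members, up to 3 called genes with the largest difference per list and comparison, the 8 genes most like the members' mean profile, *Irs2* and *Cdk4*. Genes named outside this rule were chosen after their values were seen. The limma fit was checked on simulated counts with genes changed only between Control and Diabetic islets, and the exact test on invented genes. The simulated spread was not matched to that of the members, and voom was not checked. Coordinates are from GENCODE (GRCm38), and promoters from RefSeq (GRCm38.p6). Alternatives were the pseudocount, filter, scaling, groups fitted, replicate block, nuclear RNA covariate and leaving out each library.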

Additional observations from a re-analysis of the deposited data

How the results depend on the processing

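The counts of members called were 1 (Diabetic against Control), 3 (Rescue against Diabetic) and 3 (Rescue against Control). With no filter the first was 0 and the second 1. Fitting only the groups compared gave 1 in Rescue against Diabetic islets, and the nuclear RNA covariate gave 1 in each Rescue comparison. In Rescue against Control islets a pseudocount of 0.1 gave 1, and a mean of at least 5 RPKM gave 0. Other scalings and voom left 1, 4 and 3. Leaving out each library gave 0 to 1, 0 to 3 and 0 to 4 in the same order. The number of members with an exact permutation p under 0.05 was 2, and 1 to 2 with a library left out (1 without Control 3, Rescue 1 or Rescue 2). With a Rescue library left out, the lone Rescue library was assumed to vary like the other groups. The cause of these shifts was not tested.

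The replicate block gave 0, 1 and 1 members called. Same-numbered samples had correlated deviations of 0.327 (Control 1 and Diabetic 1), 0.372 (Control 1 and Rescue 1), 0.082 (Diabetic 1 and Rescue 1), -0.263 (Control 3 and Diabetic 3) and 0.07 (Diabetic 2 and Rescue 2), so the shared number was not taken as a pairing.

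Of the single-gene values, 367 kept their direction and side of the threshold, 45 lost a call, 6 gained one and 29 changed sign. In Diabetic against Control islets, where *Fos* (-0.14), *Fosb* (-0.07), *Jun* (0.08), *Junb* (0.05), *Egr1* (0.12), *Ier2* (0.01) and *Nr4a1* (0.55) were not called, the log2 difference changed sign for *Fos* (0.96) and *Fosb* (0.47) with the covariate and for *Fos* (0.14) and *Fosb* (0.17) with voom. It changed sign with the replicate block for *Jun* (-0.48), *Junb* (-0.51), *Egr1* (-0.66), *Ier2* (-0.31) and *Nr4a1* (-0.19), and for *Ier2* with a pseudocount of 0.1 (-0.0026). With libraries left out the ranges were -1.76 to 1.12 (*Fos*), -1.01 to 0.73 (*Fosb*), -1.0 to 0.91 (*Jun*), -0.55 to 0.58 (*Junb*), -0.91 to 0.97 (*Egr1*) and -0.55 to 0.46 (*Ier2*). In Rescue against Diabetic islets *Jun* was at -0.13 with the covariate. *Nr4a2* in Diabetic against Control islets was called in 10 of 17 settings, at log2 1.35 to 2.03, and the block gave adjusted p = 0.167 by limma. The planned edgeR count test was not run. *Egr2*, *Fosb* and *Nr4a3* are limited by depth, at 2 to 5 reads in their lowest libraries.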

Other observations

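A few rapidly induced genes did not follow the pattern of *Fos* and were picked out after their values were seen. *Rgs2*, a regulator of G protein signalling, was at 10.1, 247 and 18.9 RPKM in Control 1, 3 and 4, at 19.5, 21 and 33.5 RPKM in Diabetic, and at 21.6 and 33.0 RPKM in Rescue islets, so that it was high in Control 3 alone and not in Diabetic 1 or Rescue 2. *Npas4*, a calcium-dependent factor of neurons and β cells, was at 1.15, 3.78 and 0.493 RPKM in Control, 0.11, 0 and 0.0714 RPKM in Diabetic, and 1.94 and 1.33 RPKM in Rescue islets, so that all Diabetic libraries lay below all others. *Dusp6*, a phosphatase of ERK, was at 4.44, 3.68 and 4.69 RPKM in Control, 48.0, 18.8 and 6.74 RPKM in Diabetic, and 9.13 and 11.7 RPKM in Rescue islets. Its Diabetic libraries held both its highest value and one below both Rescue libraries.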
